A study of Canis lupus familiaris with 15 samples.

Results

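The mir-183, mir-96, mir-182 cluster was measured in small RNA libraries from 15 canine spleens. Its members were taken by name from every deposited table: mir-182, mir-183 and mir-96 make up 3 of the 277 miRNAs listed after copies of a hairpin were merged, and all 3 were among the 250 with enough reads to test. The groups were 5 spleens with hemangiosarcoma, a malignant tumor of blood vessel endothelium, 5 with nodular hyperplasia, a benign nodular overgrowth of splenic tissue, and 5 normal spleens. Each spleen gave 1 library and stands for 1 dog of its group. Tissue of both lesions was cut from splenic masses of client-owned dogs, whereas the normal spleens were archived frozen tissue, so disease and source of tissue cannot be told apart in any comparison with normal spleen. Treatment, breed, sex and age of the dogs were not given in the sources used here.

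In mammals these hairpins are cut from 1 shared primary transcript, and the mature miRNAs mir-96 and mir-182 have closely related seeds. The cluster is best known from sensory cells. It is abundant in the retina and in the hair cells of the inner ear, and mutations of mir-96 cause hearing loss in humans and mice. In mouse helper T lymphocytes, mir-182 is induced by interleukin 2 and represses Foxo1, a transcription factor that holds lymphocytes in rest. In human tumor cells mir-182 and mir-96 repress FOXO1 as well, and mir-183 represses EGR1. In the RefSeq gene table of the assembly UU_Cfam_GSD_1.0, MIR183, MIR96 and MIR182 lie next to each other within the stretch of the long non-coding RNA LOC102151305, between the protein-coding genes UBE2H and NRF1. The 3 members matched that table through their miRBase names.

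Across the 15 libraries, mir-182 gave 8686 mature reads, mir-183 gave 4173 and mir-96 gave 1897. Every one of these mature reads was counted on the 5' arm, with 0 on the 3' arm, and all were assigned to the member's hairpin alone. Whether a mature 3' arm was annotated for these hairpins was not given in the sources used here. Reads of a 3' arm could therefore be among those counted off the mature arm. The libraries held 3040736 to 7548062 mature reads each. Levels are given in CPM, the read count relative to the mature reads of the library, after scaling by the trimmed mean of M-values (TMM). The TMM factors of hemangiosarcoma libraries were 0.76 to 1.58, those of nodular hyperplasia libraries 0.78 to 1.62 and those of normal spleens 0.49 to 1.05. The cluster was of middling abundance. The median level of mir-182 ranked 130 of 250 tested miRNAs in hemangiosarcoma, 98 in nodular hyperplasia and 119 in normal spleen, that of mir-183 ranked 142, 116 and 133, and that of mir-96 ranked 167, 133 and 168 in the same groups. Whole tissue was sequenced, so fewer cells of a type and less RNA per cell cannot be told apart.

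Nodular hyperplasia had the highest mean level of each member. The summed level of the cluster averaged 113 ± 88.0 CPM for hemangiosarcoma, 321 ± 102 CPM for nodular hyperplasia and 104 ± 41.9 CPM for normal spleen (SD, n = 5 each). Hemangiosarcoma libraries had sums of 49.2 to 267 CPM, nodular hyperplasia libraries 180 to 461 CPM and normal spleens 52.9 to 164 CPM. Every nodular hyperplasia library was therefore above every normal spleen in the sum, and 4 of 5 hemangiosarcoma libraries were below every nodular hyperplasia library.

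For mir-182, the most abundant member, the hemangiosarcoma libraries 1 to 5 had 64.7, 44.6, 39.2, 29.4 and 145 CPM. The nodular hyperplasia libraries had 203, 259, 93.7, 202 and 195 CPM, and the normal spleens had 106, 52.1, 31.9, 77.9 and 57.9 CPM. In nodular hyperplasia, 4 of 5 libraries lay above every normal spleen, and replicate 3 (93.7 CPM) lay below normal spleen replicate 1 (106 CPM). Hemangiosarcoma replicate 5 was the only one of its group to reach the range of nodular hyperplasia.

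For mir-183, the hemangiosarcoma libraries had 26.7, 23.2, 20.9, 13.1 and 69.6 CPM. The nodular hyperplasia libraries had 110, 129, 54.2, 68.3 and 88.1 CPM, and the normal spleens had 51.5, 26.9, 13.9, 34.2 and 31.2 CPM. The lowest nodular hyperplasia library was above the highest normal spleen, and hemangiosarcoma replicate 5 was again inside the range of nodular hyperplasia while the other 4 were below it.

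For mir-96, the least abundant member and the one tied to hearing, the hemangiosarcoma libraries had 10.04, 14.9, 6.33, 6.67 and 52.2 CPM. The nodular hyperplasia libraries had 41.3, 73.0, 31.8, 24.8 and 30.6 CPM, and the normal spleens had 5.94, 4.10, 7.15, 11.4 and 9.54 CPM. Nodular hyperplasia did not overlap with normal spleen, and hemangiosarcoma replicate 5 was higher than 4 of the 5 nodular hyperplasia libraries. These levels rest on few reads in normal spleen: replicates 1 and 2 had 18 mature reads each, and the exact 95% Poisson interval of replicate 2 was 2.43 to 6.47 CPM, which covers counting error only.

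**Figure D1:**
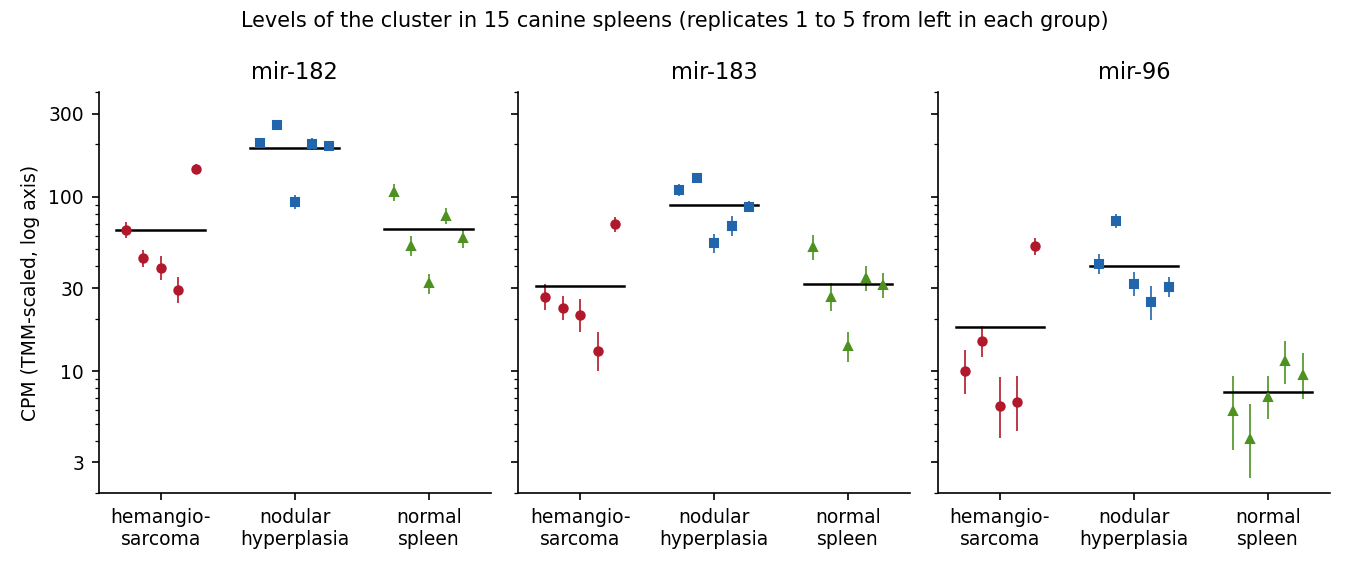
Level of mir-182, mir-183 and mir-96 in each library (vertical axis, TMM-scaled CPM, log axis), with hemangiosarcoma, nodular hyperplasia and normal spleen from left to right. Points are libraries with exact 95% Poisson intervals and black lines are group means of 5: the nodular hyperplasia means (191, 89.8 and 40.3 CPM) are the highest for each member, and 1 hemangiosarcoma library, replicate 5, stands above its group.

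Nodular hyperplasia against normal spleen compares a benign mass with healthy splenic tissue of other dogs. All 3 members were higher in nodular hyperplasia by edgeR's quasi-likelihood test with Benjamini-Hochberg adjustment over the 250 miRNAs, at a threshold of 0.05, in a comparison where 5.6% of tested miRNAs were called higher. The level of mir-96 averaged 40.3 ± 19.2 CPM in nodular hyperplasia, against 7.62 ± 2.89 CPM in normal spleen, which gave a log2 fold change of 2.40 (SE 0.58, adjusted p = 0.0172), or 5.27-fold with a 95% confidence interval of 2.25 to 12.3. It ranked 9 of 250 by p-value. The level of mir-182 averaged 191 ± 60.0 CPM in nodular hyperplasia, against 65.2 ± 28.2 CPM in normal spleen, for a log2 fold change of 1.55 (SE 0.45, adjusted p = 0.0342), or 2.93-fold (1.52 to 5.64). That of mir-183 averaged 89.8 ± 30.1 CPM in nodular hyperplasia, against 31.5 ± 13.6 CPM in normal spleen, for a log2 fold change of 1.51 (SE 0.46, adjusted p = 0.0375), or 2.85-fold (1.46 to 5.57).

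The groups did not overlap for 2 of the 3 members, mir-183 and mir-96, where 6.4% of tested miRNAs had every nodular hyperplasia library above every normal spleen. An exact two-sided permutation test of mean log2(CPM + 1) over all orderings of the 10 libraries gave p = 0.0159 for mir-182 and p = 0.00794, the smallest this design allows, for mir-183 and mir-96, each 0.0357 after adjustment over the 9 tests of 3 members in 3 comparisons. The direction was the same under every scaling tried. Background shares moved with the setting. In all, 14 miRNAs were called higher and 17 lower, against 45 and 6 with library totals, 11 and 5 with unscaled counts, 27 and 25 with DESeq2, 30 and 26 in a fit of these groups alone, and 3 and 1 without normal spleen replicate 2. With library totals alone the median log2 fold change of all tested miRNAs moved to 0.81, from 0.23 with TMM, and the differences relative to that median were 1.49 for mir-182, 1.48 for mir-183 and 2.27 for mir-96, against 1.32, 1.28 and 2.17 with TMM.

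The calls of mir-182 and mir-183 were close to the threshold. That of mir-182 was lost without any one of nodular hyperplasia replicates 1, 2, 4 and 5 or normal spleen replicates 2, 3, 4 and 5, with log2 fold changes of 1.37 to 1.62 and adjusted p of 0.0526 to 0.0876 in edgeR. That of mir-183 was lost without nodular hyperplasia replicate 1, 2 or 5 or normal spleen replicate 2, 3, 4 or 5 (1.32 to 1.54, edgeR adjusted p up to 0.0996) and with upper quartile scaling (1.42, adjusted p = 0.0589), and that of mir-96 only without normal spleen replicate 2 (2.24, adjusted p = 0.0525).

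Hemangiosarcoma against nodular hyperplasia sets a malignant against a benign mass, both taken at surgery. Here 2 of 3 members, mir-182 and mir-183, were lower in hemangiosarcoma, where 8.0% of tested miRNAs were called lower. The level of mir-182 averaged 64.6 ± 46.8 CPM in hemangiosarcoma and 191 ± 60.0 CPM in nodular hyperplasia, with a log2 fold change in edgeR of -1.56 (SE 0.45, adjusted p = 0.0257), or 2.95-fold lower (95% confidence interval 1.53 to 5.69). That of mir-183 averaged 30.7 ± 22.3 CPM in hemangiosarcoma and 89.8 ± 30.1 CPM in nodular hyperplasia, a log2 fold change of -1.55 (SE 0.46, adjusted p = 0.0309), or 2.92-fold lower (1.495 to 5.70). For mir-96 the means were 18.0 ± 19.4 CPM in hemangiosarcoma and 40.3 ± 19.2 CPM in nodular hyperplasia, and the log2 fold change of -1.16 (SE 0.56) did not pass the test (edgeR adjusted p = 0.149), with a 95% confidence interval of -2.33 to 0.02.

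The groups overlapped in every member (0 of 3 without overlap), in a comparison where 4.4% of tested miRNAs had every hemangiosarcoma library below every nodular hyperplasia library. In each member 4 of 5 hemangiosarcoma libraries lay below every nodular hyperplasia library, and replicate 5 was the exception. Exact two-sided permutation over all orderings of the 10 libraries gave p = 0.0159 for mir-182, 0.0238 for mir-183 and 0.0476 for mir-96, or 0.0357, 0.0429 and 0.0714 after adjustment over the 9 tests.

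Whether mir-96 was called depended on a single library and on the method. Without hemangiosarcoma replicate 5 its log2 fold change was -2.08 (edgeR adjusted p = 0.00695), and limma voom on all libraries gave -1.53 (adjusted p = 0.0493). The calls of mir-182 and mir-183 were lost without hemangiosarcoma replicate 1 or 4, nodular hyperplasia replicate 2 or normal spleen replicate 5, and for mir-183 also without nodular hyperplasia replicate 1, with log2 fold changes of -1.56 to -1.38 for mir-182 and -1.499 to -1.35 for mir-183. They were lost as well with library totals (adjusted p = 0.0531 and 0.0551 in edgeR) and in a fit of these groups alone (0.0786 and 0.0824).

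Hemangiosarcoma against normal spleen compares the tumor with healthy splenic tissue of other dogs. For none of the members (0 of 3) did edgeR call a difference, in a comparison where 22.4% of tested miRNAs were called in either direction. DESeq2 and limma voom also called 0 of 3. In edgeR mir-96 alone had an unadjusted p under 0.05 (0.0418, adjusted p = 0.131). The level of mir-182 averaged 64.6 ± 46.8 CPM in hemangiosarcoma and 65.2 ± 28.2 CPM in normal spleen, for a log2 fold change of -0.01 with a 95% confidence interval of -0.94 to 0.91. For mir-183 the means were 30.7 ± 22.3 CPM in hemangiosarcoma and 31.5 ± 13.6 CPM in normal spleen, for a log2 fold change of -0.03 (-0.98 to 0.91). These intervals leave room for differences of up to 1.92-fold and 1.97-fold lower and 1.89-fold higher, and the sign of both values changed with the scaling.

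For mir-96 the means were 18.0 ± 19.4 CPM in hemangiosarcoma and 7.62 ± 2.89 CPM in normal spleen, with a log2 fold change of 1.24 (SE 0.56). Hemangiosarcoma replicate 5 carried most of it. Without that library the log2 fold change of mir-96 was 0.32, and 3 of the other hemangiosarcoma libraries (6.33, 6.67 and 10.04 CPM) were inside the range of normal spleen, 4.10 to 11.4 CPM. The exact permutation test on all libraries gave p = 0.246.

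**Figure D2:**
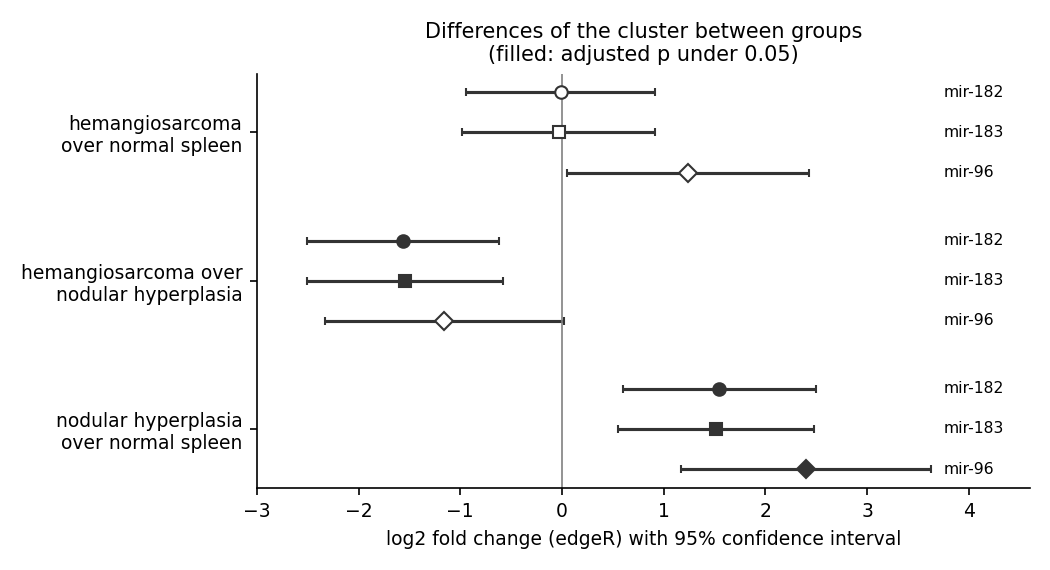
Log2 fold change of mir-182 (circle), mir-183 (square) and mir-96 (diamond) with its 95% confidence interval in each comparison (horizontal axis, edgeR), filled where the adjusted p is under 0.05. All 3 members are filled above 0 for nodular hyperplasia over normal spleen (1.55, 1.51 and 2.40), 2 are filled below 0 for hemangiosarcoma over nodular hyperplasia (-1.56 and -1.55), and none is filled for hemangiosarcoma over normal spleen.

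Ratios between members within a library do not depend on how libraries are scaled. In the reads, mir-182 stood at 1.73 to 2.96 times mir-183 in the 15 libraries, with a median of 2.06, so this ratio varied over a 1.71-fold range while the level of mir-182 itself ran from 29.4 to 259 CPM. The mean log2 ratio of mir-182 to mir-183 was 1.07 ± 0.15 in hemangiosarcoma, 1.08 ± 0.30 in nodular hyperplasia and 1.05 ± 0.14 in normal spleen (SD, n = 5 each). Since a read spans a whole mature miRNA, read numbers were compared between members without a correction for length, but they are ratios of reads and not of molecules.

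The ratio of mir-96 to its neighbours was far less even. It ran from 0.115 to 0.75 reads of mir-96 per read of mir-183, a 6.50-fold range, and from 0.0559 to 0.360 per read of mir-182, a 6.44-fold range. The mean log2 ratio of mir-96 to mir-183 was -1.02 ± 0.53 in hemangiosarcoma, -1.19 ± 0.37 in nodular hyperplasia and -1.997 ± 0.866 in normal spleen. The lowest ratios to mir-183 were those of normal spleen replicates 1 and 2, where mir-96 made up 3.63% and 4.93% of the cluster's reads, against 8.403% to 19.6% in the other 13 libraries. Both replicates had 18 mature reads of mir-96, and the part of counting error in this spread was not tested.

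No difference in these ratios passed the exact permutation test after adjustment over 9 tests. For mir-96 to mir-183 the difference in mean log2 ratio was 0.97 between hemangiosarcoma and normal spleen (exact p = 0.0794, adjusted 0.262) and 0.80 between nodular hyperplasia and normal spleen (exact p = 0.0873, adjusted 0.262). For mir-96 to mir-182 it was 0.96 between hemangiosarcoma and normal spleen (exact p = 0.0635, adjusted 0.262) and 0.78 between nodular hyperplasia and normal spleen (exact p = 0.135, adjusted 0.304). The larger fold change of mir-96 than of mir-182 and mir-183 in nodular hyperplasia over normal spleen is therefore not shown to differ from theirs.

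**Figure D3:**
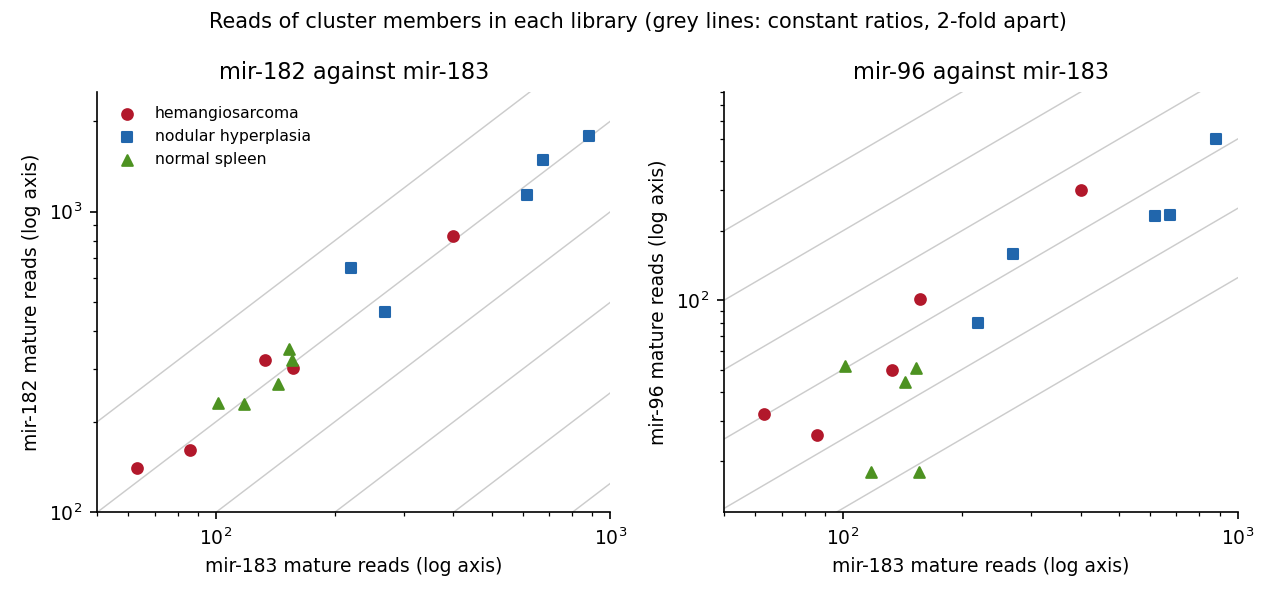
Mature reads of mir-182 (left) and mir-96 (right) against mature reads of mir-183 in each of the 15 libraries (all axes are log axes, in reads), with grey lines of constant ratio. The mir-182 points keep within ratios of 1.73 to 2.96, whereas the mir-96 points spread over ratios of 0.115 to 0.75, lowest in normal spleen replicates 1 and 2.

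Sample by sample, mir-182 and mir-183 moved together. Over the 15 libraries, log2(CPM + 1) of mir-182 and mir-183 had Pearson's r = 0.982 and Spearman's rho = 0.975 (both p = 1e-05, the smallest that 100000 permutations give, adjusted 3e-05 over 3 pairs). With the group means taken out and labels permuted within groups, r was 0.955 (permutation p = 1e-05) and rho 0.896 (p = 3e-05), and r was 0.933 without the 2 libraries farthest from the median. These values share the scaling factor of each library.

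The link with mir-96, the member with the fewest reads, was looser, and the part of counting error in this was not tested. Levels of mir-96 and mir-183 had r = 0.831 (permutation p = 0.00016, adjusted 0.00024) and rho = 0.757 (p = 0.0014, adjusted 0.0021), and those of mir-96 and mir-182 had r = 0.815 (p = 0.00032, adjusted 0.00032) and rho = 0.729 (p = 0.0028, adjusted 0.0028), with r of 0.774 and 0.758 without the 2 farthest libraries. Within groups r was 0.705 for mir-96 and mir-183 (permutation p = 0.019, adjusted 0.028) with rho = 0.596 (p = 0.028, adjusted 0.042), and 0.659 for mir-96 and mir-182 (p = 0.031, adjusted 0.031) with rho = 0.475 (p = 0.1, adjusted 0.1). Without hemangiosarcoma replicate 5 and nodular hyperplasia replicate 2 the within-group r fell to 0.368 and 0.300, so with TMM scaling these within-group relations rest on those libraries. With library totals the within-group r was higher, at 0.865 for mir-96 and mir-183 (permutation p = 0.001, adjusted 0.0015) with rho = 0.793 (p = 0.0015, adjusted 0.0023), and at 0.838 for mir-96 and mir-182 (p = 0.0025, adjusted 0.0025) with rho = 0.721 (p = 0.0053, adjusted 0.0053). Without the same libraries it was 0.649 and 0.565, so the strength of these relations depends on the scaling.

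Reads off the mature arm were counted apart from the level. For mir-182 they made up 8.15% ± 2.06 of hairpin reads in hemangiosarcoma, 9.45% ± 0.84 in nodular hyperplasia and 12.5% ± 2.66 in normal spleen (SD, n = 5 each). For mir-183 the shares were 1.04% ± 0.81 in hemangiosarcoma, 1.52% ± 0.76 in nodular hyperplasia and 2.84% ± 0.83 in normal spleen. Both had their lowest mean in hemangiosarcoma. Over all reads of a library the off-arm share ran from 7.86% to 22.8% for hemangiosarcoma, from 5.37% to 10.4% for nodular hyperplasia and from 4.83% to 8.57% for normal spleen. Its median over the tested miRNAs, in which each counts alike, was 6.46% to 10.8% for hemangiosarcoma, with 4 of 5 libraries at 7.29% or below, 6.97% to 8.63% for nodular hyperplasia and 7.29% to 7.67% for normal spleen, so the groups overlapped.

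None of these differences passed after adjustment. For hemangiosarcoma minus normal spleen the difference was -4.38 percentage points for mir-182 (exact permutation p = 0.0159, adjusted 0.107) and -1.79 for mir-183 (exact p = 0.0238, adjusted 0.107). For nodular hyperplasia minus normal spleen it was -3.08 for mir-182 (exact p = 0.0476, adjusted 0.107) and -1.32 for mir-183 (exact p = 0.0397, adjusted 0.107). For mir-96 the share was 1.94% ± 3.16 in hemangiosarcoma, 2.58% ± 1.09 in nodular hyperplasia and 1.43% ± 2.29 in normal spleen, on hairpin reads so few that 0 of 18 in normal spleen replicate 1 has an exact 95% binomial (Clopper-Pearson) interval reaching 18.5%.

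**Figure D4:**
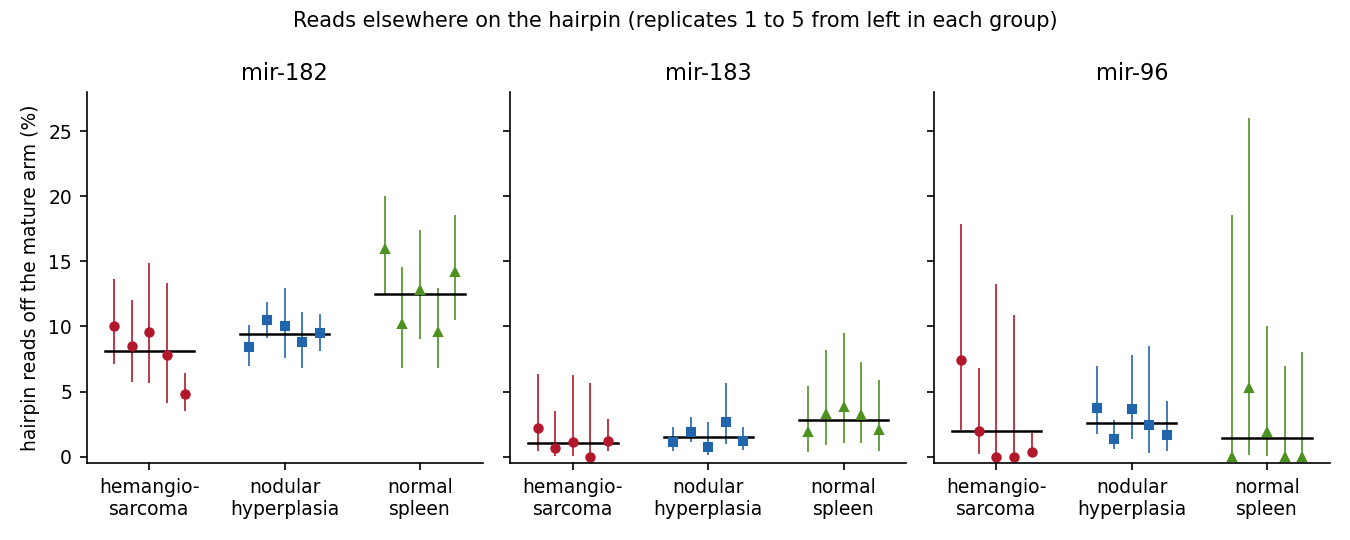
Share of each member's hairpin reads that lie off the mature arm (vertical axis, percent) in hemangiosarcoma, nodular hyperplasia and normal spleen, from left to right. Points are libraries with exact 95% binomial intervals and black lines are group means: the means of mir-182 (8.15%, 9.45% and 12.5%) and mir-183 (1.04%, 1.52% and 2.84%) are highest in normal spleen, and intervals of mir-96 are wide.

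Among reads on the mature arm, the share matching the annotated mature sequence exactly was 44.3% ± 4.88 in hemangiosarcoma, 40.8% ± 2.02 in nodular hyperplasia and 46.1% ± 3.89 in normal spleen for mir-182, and 42.7% ± 5.35, 44.4% ± 2.03 and 42.3% ± 2.28 in the same groups for mir-183. For mir-96 it was 60.7% ± 5.10 in hemangiosarcoma, 56.6% ± 2.59 in nodular hyperplasia and 69.4% ± 6.06 in normal spleen. Nodular hyperplasia libraries had 53.8% to 60.0% for mir-96, below all normal spleens at 61.1% to 76.9%. The lowest of these normal spleens, replicate 1, rests on 11 of 18 reads. The difference was noticed in the values and not tested, and such gaps were not counted over all tested miRNAs. The median exact share over the tested miRNAs was 25.0% to 27.3% in nodular hyperplasia libraries and 26.6% to 28.9% in normal spleens. Counting exact reads alone kept all 3 members called for nodular hyperplasia over normal spleen, and both mir-182 and mir-183 called lower in hemangiosarcoma than in nodular hyperplasia. For mir-182 both calls were then just under the threshold, with edgeR adjusted p of 0.0496 and 0.0469 in these comparisons.

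By Spearman correlation of log2(CPM + 1) over the 15 libraries, as a description, the miRNA most like mir-182 among the 249 others was mir-183 (rho = 0.975), and mir-96 ranked 4 for both. For mir-96, mir-183 ranked 7 and mir-182 ranked 11. Outside the cluster, mir-551a was the most like all 3 members (rho = 0.85 for mir-182, 0.839 for mir-183 and 0.825 for mir-96), at levels of 0 to 16.7 CPM for hemangiosarcoma, 6.25 to 9.62 CPM for nodular hyperplasia and 2.05 to 3.25 CPM for normal spleen. Next for mir-182 and mir-183 was mir-150 (0.796 and 0.807), a miRNA of mature lymphocytes. It averaged 538 ± 318 CPM for hemangiosarcoma, 4611 ± 2159 CPM for nodular hyperplasia and 1973 ± 561 CPM for normal spleen.

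The other miRNAs nearest to mir-182 were mir-146b (0.725), which limits NF-kappaB signalling, mir-1835 (0.664) and mir-142 (0.65), a miRNA of blood cells. Those nearest to mir-183 were mir-376b (0.723), mir-142 and mir-141 (0.693 each), and those nearest to mir-96 were mir-208b (0.821), mir-19a and mir-141 (0.796 each) and mir-376b (0.771). Levels of mir-208b and mir-376b were at most 0.738 and 3.40 CPM in any library, so their order rests on a few reads. All of these share library scaling and the same 15 spleens.

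Lists of miRNAs tied to cell types were set beside the cluster. Over all tested miRNAs edgeR called 13.6% higher and 8.8% lower in hemangiosarcoma against normal spleen, 10.4% higher and 8.0% lower in hemangiosarcoma against nodular hyperplasia, and 5.6% higher and 6.8% lower in nodular hyperplasia against normal spleen. Of 7 lymphocyte miRNAs, 4 were lower in hemangiosarcoma than in nodular hyperplasia, mir-150, mir-142, mir-155 and mir-342. The others, mir-28 (log2 fold change 0.15), mir-181a (0.23) and mir-181b (0.21), were positive there without passing. The median log2 fold change over the list was -1.40, against -0.07 over all tested. In nodular hyperplasia over normal spleen, where all cluster members were higher, edgeR called 0 of the 7 higher and 2 lower, mir-28 and mir-181a (median 0.25 over the list, 0.23 over all tested). At an unadjusted p under 0.05, 3 were higher and 3 lower. DESeq2 called 2 higher and 3 lower, and limma voom 0 and 2. The log2 fold changes of mir-150 (1.22, edgeR adjusted p = 0.0614), mir-155 (0.996, adjusted p = 0.0701) and mir-142 (0.99, adjusted p = 0.0959) were positive without passing. In hemangiosarcoma over normal spleen, where no cluster member was called, 6 of the 7 were lower (median -1.15, against 0.03 over all tested). The summed level of the list was 7419 to 17825 CPM for hemangiosarcoma, 20900 to 38407 CPM for nodular hyperplasia and 19995 to 29356 CPM for normal spleen, so hemangiosarcoma lay below both other groups, which overlapped. Its part in the levels of the cluster was not tested.

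Of 10 miRNAs of lymphocyte activation and growth, 1 was called higher in nodular hyperplasia than in normal spleen, mir-146b, with a log2 fold change of 2.57 in edgeR (SE 0.43, adjusted p = 0.00282), and none lower, with a median of 0.41 over the list. At 1 of 10 this is near the 5.6% over all tested, and DESeq2 called 3 higher and limma voom 1. In hemangiosarcoma against nodular hyperplasia 4 were lower, mir-146b, mir-155, mir-146a and mir-19b, and none higher (median -0.49, against -0.07 over all tested). Levels of mir-146b were 175 to 454 CPM for hemangiosarcoma, 191 to 1594 CPM for nodular hyperplasia and 126 to 196 CPM for normal spleen. In hemangiosarcoma against normal spleen, mir-21 was higher, and mir-155 and mir-146a were lower. Of the growth-linked mir-17 cluster, mir-19b was the 1 of 6 members to pass in any comparison (log2 fold change -0.71 for hemangiosarcoma over nodular hyperplasia, edgeR adjusted p = 0.0489), and mir-17, mir-18a, mir-19a, mir-20a and mir-92a did not pass.

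Of 7 epithelial miRNAs, another tissue in which the cluster is known from carcinomas, 6 were tested. The mir-200 family member mir-141 was higher in nodular hyperplasia (9.92 ± 2.90 CPM) than in normal spleen (2.99 ± 1.501 CPM), with a log2 fold change of 1.72 (edgeR adjusted p = 0.0182). The other 5 did not pass there. Of these, mir-205 (4.91), mir-429 (1.13) and mir-200c (1.03) were positive, and mir-203 (-0.43) and mir-200a (-0.09) were negative. Both mir-141 and mir-200c were lower in hemangiosarcoma than in nodular hyperplasia, and mir-203 was lower in hemangiosarcoma than in normal spleen. Against nodular hyperplasia, mir-429 (0.84) was positive and mir-200a (-0.71), mir-203 (-1.23) and mir-205 (-3.08) were negative, without passing. Against normal spleen, mir-429 (1.97) and mir-205 (1.83) were positive and mir-200a (-0.80), mir-200c (-0.52) and mir-141 (-0.27) negative, without passing. The median log2 fold change over the list was 1.08 for nodular hyperplasia over normal spleen, -1.39 for hemangiosarcoma over nodular hyperplasia and -0.39 for hemangiosarcoma over normal spleen. Over all tested miRNAs the medians of these comparisons with TMM were 0.23, -0.07 and 0.03. For hemangiosarcoma over normal spleen the list median turned to 0.14 with library totals, where the median over all tested miRNAs was 0.63. The summed level of this list was 9.26 to 32.3 CPM for hemangiosarcoma, 37.6 to 72.9 CPM for nodular hyperplasia and 39.6 to 50.9 CPM for normal spleen, and mir-205, a marker of squamous epithelium, passed in no comparison.

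Of 7 miRNAs of sensory and neuroendocrine cells, edgeR called 3 (mir-375, mir-204 and mir-9) higher in hemangiosarcoma than in nodular hyperplasia and than in normal spleen. The list medians were 1.21 and 0.63, against -0.07 and 0.03 over all tested. DESeq2 called 2 and 2 higher, and limma voom 2 and 1. The others did not pass. Against nodular hyperplasia mir-211 was at 1.21, mir-7 at -0.17, mir-184 at -0.07 and mir-124 at -1.42. Against normal spleen these were at 0.63, -0.43, -0.81 and 0.43. In nodular hyperplasia over normal spleen edgeR called 0 of 7, with 2 at an unadjusted p under 0.05, while DESeq2 called 1 and limma voom 0. The level of mir-375, also a pancreatic islet miRNA, reached 3486 CPM in hemangiosarcoma replicate 3 and at most 15.2 CPM in any nodular hyperplasia library. The 4 pancreatic miRNAs, mir-375 among them, had 2 higher in hemangiosarcoma than in normal spleen and 1 higher than in nodular hyperplasia, with summed levels of 3518 CPM in that library and at most 16.0 CPM in the other 14. Without that library, hemangiosarcoma replicate 3, mir-375 was called in neither comparison (log2 fold change -0.08 against normal spleen, edgeR adjusted p = 0.976, and -1.39 against nodular hyperplasia, adjusted p = 0.254), nor was mir-216b (0.77, adjusted p = 0.759, and -0.45, adjusted p = 0.826). The cluster summed to 66.5 CPM there.

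The endothelial miRNA mir-126 was at 3006 to 13777 CPM for hemangiosarcoma, 824 to 2536 CPM for nodular hyperplasia and 2161 to 2734 CPM for normal spleen. It was higher in hemangiosarcoma than in nodular hyperplasia (log2 fold change 2.59, edgeR adjusted p = 0.000735) and than in normal spleen (1.69, adjusted p = 0.00761), and did not pass between nodular hyperplasia and normal spleen. Of 4 miRNAs of smooth muscle and fibroblasts, mir-143 and mir-145 were lower for nodular hyperplasia against normal spleen. The others, mir-199 (log2 fold change 0.26) and mir-214 (0.26), were positive there without passing. For hemangiosarcoma against normal spleen mir-143 was lower, and mir-145 (-0.74), mir-199 (-0.17) and mir-214 (0.20) did not pass. The list medians of these comparisons were -0.66 and -0.46, which became -0.09 and 0.14 with library totals. The medians over all tested miRNAs moved too, to 0.81 and 0.63 from 0.23 and 0.03 with TMM. The summed level of these 4 was 83931 to 512972 CPM for hemangiosarcoma, 69467 to 213358 CPM for nodular hyperplasia and 348048 to 1053980 CPM for normal spleen. Most of this sum was mir-143 alone, which averaged 220789 CPM for hemangiosarcoma, 139107 CPM for nodular hyperplasia and 595461 CPM for normal spleen. Of 3 erythroid miRNAs 2 were tested, and mir-451 was lower in hemangiosarcoma than in normal spleen, the only call among them. What these lists contribute to the levels of the cluster was not tested.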

How the data were processed

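Small RNA of 15 canine spleens was sequenced as 1 library each. Quality control by the authors used FastQC, and trimming, filtering and counting used CLCbio, with canine hairpins of miRBase as the annotation (versions of FastQC and CLCbio not stated in the sources, and the genome build in the submitters' notes is canFam3). Raw counts for each hairpin were deposited, without normalization, split into mature reads of either arm and other reads. Both mature counts of a hairpin were added, and hairpins of 1 mature miRNA were merged by name. The deposited column of expression values holds the count of the 5' arm and was not used by itself.

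The 250 miRNAs with at least 10 counts over all libraries were tested with edgeR 4.0.16 (quasi-likelihood, TMM, group means of all 3 groups) in R 4.3.3, with Benjamini-Hochberg adjustment per comparison and a threshold of 0.05. A standard error is the absolute log2 fold change divided by the root of edgeR's F statistic. Exact permutation tests used a pseudocount of 1 CPM, or 0.5 reads for ratios. DESeq2 1.42.0, limma 3.58.1, other scalings, filters and read classes, a replicate block and leaving out each library were the alternatives. The edgeR step was tested on simulated data. Other steps ran in Python 3.11.15 (scipy 1.17.1, numpy 2.4.6, pandas 2.3.3, matplotlib 3.10.9). Named miRNAs were the members, the 5 others most like each, and examples from 8 lists (epithelium, sensory and neuroendocrine cells, pancreas, lymphocytes, lymphocyte activation and growth, endothelium, erythroid cells, smooth muscle and fibroblasts). Members and lists were chosen with earlier results of these data known.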

Additional observations from a re-analysis of the deposited data

Results flagged for a closer look

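Hemangiosarcoma replicate 5 stood apart from the other 4 hemangiosarcoma libraries by Dixon's test in 3 values of the cluster: the level of mir-183 (69.6 CPM, against 13.1 to 26.7 CPM in the others), the level of mir-96 (52.2 CPM, against 6.33 to 14.9 CPM) and the summed level of the cluster (267 CPM, against 49.2 to 101 CPM). These 3 values are not independent. Its level of mir-182, 145 CPM against 29.4 to 64.7 CPM, was not past the critical value. This library also had the highest mir-551a of all 15, at 16.7 CPM.

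For mir-96, the share of hairpin reads off the mature arm was 7.41% in hemangiosarcoma replicate 1, apart from 0% to 1.94% in the other hemangiosarcoma libraries. It rests on 4 of 54 reads, with an exact 95% binomial interval of 2.06% to 17.9%. In all, 30 groups of values were checked and 4 had a sample apart, where chance alone gives about 1 in 20.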

How the results depend on the processing

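The log2 fold changes of nodular hyperplasia over normal spleen stayed above 0, and those of hemangiosarcoma over nodular hyperplasia below 0, under all settings tried. Leaving out each library in turn, nodular hyperplasia over normal spleen was 1.37 to 1.79 for mir-182, 1.32 to 1.76 for mir-183 and 2.07 to 2.59 for mir-96, and hemangiosarcoma over nodular hyperplasia was -2.10 to -1.38 for mir-182, -2.09 to -1.35 for mir-183 and -2.08 to -0.83 for mir-96. In hemangiosarcoma over nodular hyperplasia, mir-182 and mir-183 lost their calls with library totals (-1.57 and -1.58) and in a fit of those groups alone (-1.48 and -1.46), and mir-96 gained one with limma voom (-1.53). In nodular hyperplasia over normal spleen mir-183 lost its call with upper quartile factors (1.42).

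Hemangiosarcoma over normal spleen, near 0 for mir-182 and mir-183, changed sign without a call: to 0.73 and 0.71 with library totals, 0.33 and 0.32 with unscaled counts, 0.0628 and 0.0333 with upper quartile factors, 0.0258 and 0.0053 with no low count filter, 0.13 and 0.11 with edgeR's own filter, 0.0608 and 0.0343 in a fit of those groups alone, 0.0186 and 0.0684 with all hairpin reads, and 0.15 and 0.12 with hairpins kept apart. With exact reads mir-182 was at 0.03, and leaving out libraries gave -0.55 to 0.23 for mir-182 and -0.58 to 0.21 for mir-183. On the permutation scale, library totals, chosen after seeing the data, gave 0.45 and 0.43.

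The number of miRNAs called in hemangiosarcoma against normal spleen was 56 (34 higher, 22 lower), and 24 with unscaled counts (23 and 1). Its split was 46 and 1 with library totals and 41 and 12 with upper quartile factors. Against nodular hyperplasia it was 46 (26 and 20, or 32 and 16 with upper quartile factors), and 22 with library totals, 22 in a fit of those groups alone and 29 with the replicate block. For nodular hyperplasia against normal spleen it was 31, and 51 with library totals, 16 with unscaled counts, 52 with DESeq2 and 56 in a fit of those groups alone. Leaving out libraries gave 36 to 61, 26 to 61 and 4 to 43 calls in these comparisons, the 4 without normal spleen replicate 2.

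The log2 ratio of mir-182 to mir-183, near 0 between groups, changed sign between hemangiosarcoma and normal spleen with all hairpin reads (-0.0324) and exact reads (-0.0534), between hemangiosarcoma and nodular hyperplasia with exact reads (0.16), and between nodular hyperplasia and normal spleen with all hairpin reads (-0.0051) and exact reads (-0.21). Leaving out libraries gave -0.0397 to 0.0532, -0.0864 to 0.11 and -0.10 to 0.10. That of mir-96 to mir-182 between hemangiosarcoma and nodular hyperplasia became -0.0041 to 0.36, and the off-arm share of mir-96 in hemangiosarcoma minus normal spleen became -0.861 to 1.46 points. The causes of these changes were not tested.

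Replicate numbers name dogs within a group, and the sources used here gave no pairing between groups. Deviations of same-numbered libraries correlated between -0.325 and 0.323, over 0.1 in 5 of 15 pairs. Differently numbered libraries were not compared, so these values cannot show whether the numbers pair anything. With the replicate block, nodular hyperplasia over normal spleen was 1.57, 1.54 and 2.38 for mir-182, mir-183 and mir-96, and no call of a member changed. Depth limits mir-96 most, at 18 to 52 mature reads per normal spleen.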
